A study of Mus musculus with 12 samples.

Results

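The Slc25a genes encode the mitochondrial carrier family, the largest group of transport proteins of the inner mitochondrial membrane. They were chosen by name: every row of the gene count table whose symbol is Slc25a followed by a number, which gave 47 genes of 23420 in the table. Of these, 42 had enough counts to be among the 14898 genes tested, and the other 5 (Slc25a2, Slc25a31, Slc25a41, Slc25a43 and Slc25a54) are given by their counts. RNA was sequenced from 4 adipose depots of the mouse with 3 libraries each: the brown depots scBAT (supraclavicular) and iBAT (interscapular), and the white depots iWAT (inguinal) and eWAT (epididymal). All 12 libraries came from male C57BL/6 mice aged 8 weeks, kept at ambient temperature and left untreated. The labels do not say whether the 3 libraries of a depot came from separate animals, so the p-values measure the spread between these libraries, which may be partly technical. Each library is whole tissue, and in bulk RNA fewer cells of a type and less RNA per cell cannot be told apart.

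A mitochondrial carrier is a small protein that spans the inner membrane and exchanges or imports 1 kind of solute, such as ADP and ATP, phosphate, citrate, an amino acid, a cofactor or an acylcarnitine. The inner membrane is otherwise closed to these molecules, so the carriers set which fuels and cofactors reach the matrix enzymes. Brown fat is known for its many mitochondria and for Ucp1, a relative of these carriers with another symbol that lets protons return to the matrix and so gives heat. White fat stores triglyceride and holds fewer mitochondria.

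Total counts ran from 17159401 to 29262554 per library. The rows of the family took 0.678% to 0.722% of the counts in scBAT and 0.712% to 0.734% in iBAT, against 0.296% to 0.415% in iWAT and 0.337% to 0.381% in eWAT. Levels are CPM, read counts divided by library sizes that carry TMM factors. The depot labels were set against marker genes: the summed level of 8 brown adipocyte markers was 4290 to 5600 CPM in scBAT and 4932 to 5547 CPM in iBAT, against 128.3 to 400.1 CPM in iWAT and 87.88 to 277.8 CPM in eWAT. Markers of other tissues also differed between libraries. The 16 skeletal muscle markers, all higher in brown fat, summed to 583.5 to 7349 CPM in the brown libraries, against 77.1 to 313.4 CPM in the white ones, and 1 of them was at 0 in 1 library. The 10 B cell markers summed to 1769, 101.4 and 2431 CPM in iWAT libraries 1, 2 and 3, against at most 47.47 CPM elsewhere. The 11 T cell markers summed to 1124, 72.49 and 1741 CPM in the same libraries, against at most 22.79 CPM elsewhere. The part of these other tissues in the differences between depots was not tested, other than by leaving libraries out.

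Of the 42 tested members, 35 differed between brown and white fat in edgeR's quasi-likelihood test, at a Benjamini-Hochberg adjusted p under 0.05 computed over the whole table. Over all genes 69.4% passed the same test. In brown fat 27 members were higher, where 31.3% of all genes were higher, and 8 were lower, where 38.1% of all genes were lower. The median log2 difference, brown minus white, was 1.02 over the tested members and -0.106 over all tested genes. At least 2-fold higher in brown fat were 23 members, against 13.3% of all genes, and at least 2-fold lower were 7, against 22.2% of all genes. Libraries of the 2 kinds of fat did not overlap for 24 members with brown above (23.3% of all genes) and for 6 with brown below (21.9% of all genes).

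Each brown depot was also set against each white depot. The members called were 34 for scBAT minus iWAT (61.6% of all genes), 33 for scBAT minus eWAT (51.9%), 36 for iBAT minus iWAT (63%) and 31 for iBAT minus eWAT (53.7%). These comparisons share libraries. In all of them 23 members were higher, where 19.5% of all genes were, and 5 were lower, where 16.5% of all genes were. The 5 lower ones were Slc25a10, Slc25a13, Slc25a24, Slc25a25 and Slc25a45. Some members called between brown and white fat were not called in every pair. In iBAT minus eWAT these were Slc25a3 (adjusted p = 0.0728), Slc25a34 (0.0519) and Slc25a37 (0.0704). Slc25a30 was not called in scBAT minus eWAT (adjusted p = 0.0569), nor Slc25a38 in scBAT minus iWAT (0.0592). Slc25a18 and Slc25a53 were not called in every pair either.

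**Figure D1:**
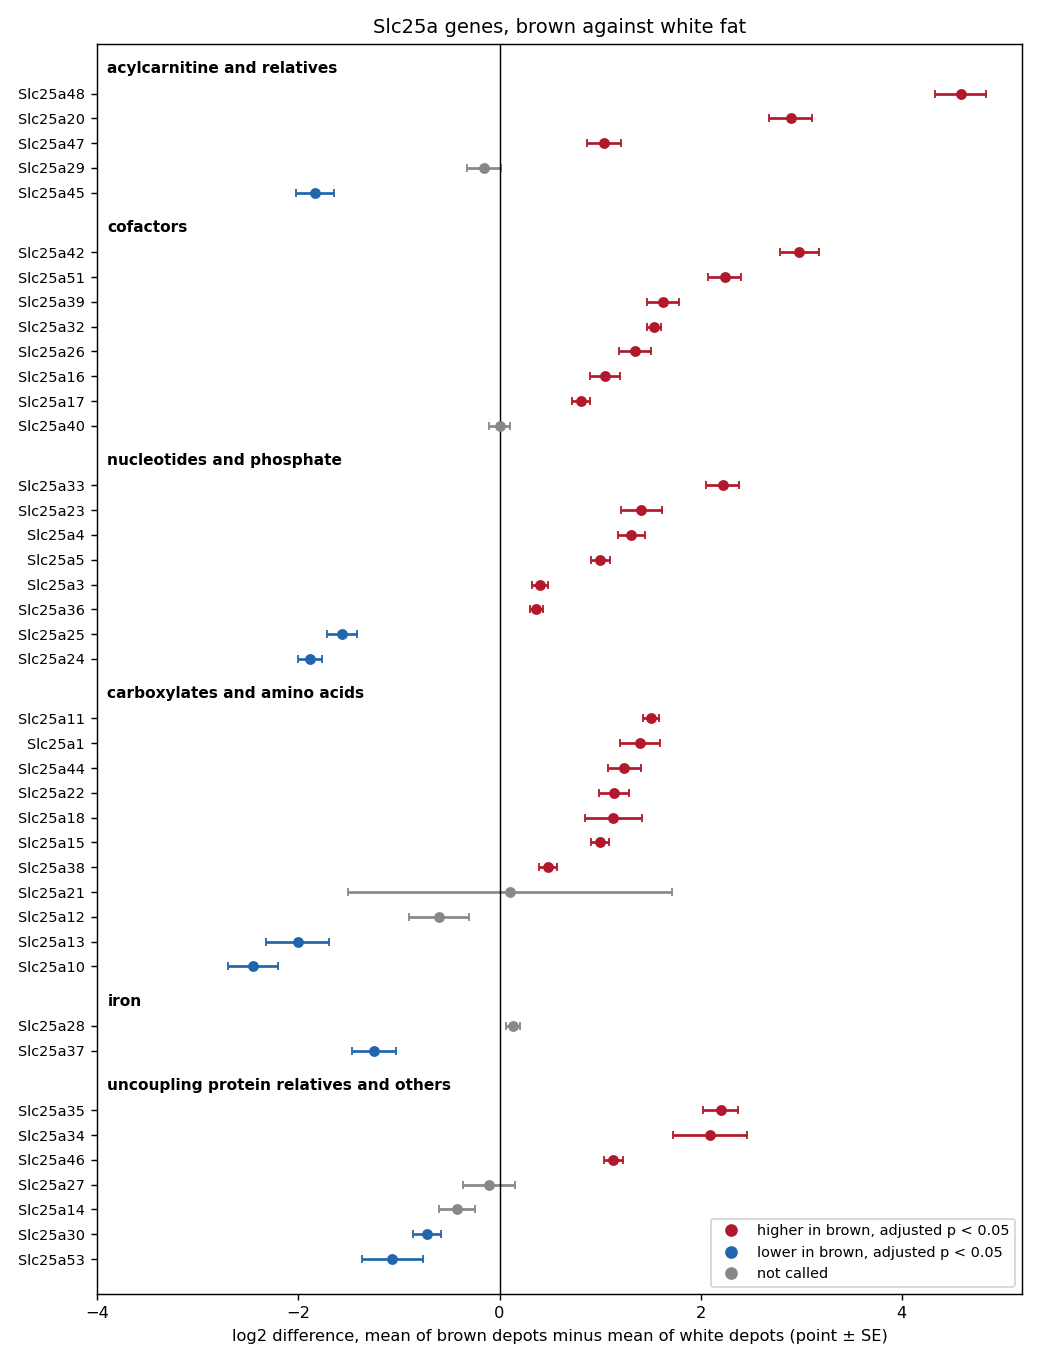
Log2 difference of tested Slc25a genes between brown and white fat (mean of brown depots minus mean of white depots, point with its standard error), grouped by what the carriers move and coloured by call. Most points lie right of 0, from Slc25a48 at 4.58, while Slc25a10 lies farthest left at -2.45.

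Promoter sequences are shown for Slc25a20 and Slc25a4, which were higher in brown fat, and for Slc25a10, the member with the lowest difference, because each holds a match to a motif that many nuclear genes for mitochondrial proteins carry. They are the RefSeq windows of the GRCm38.p6 build, 250 bases before to 50 after the start of transcription, 5′ to 3′ on the strand of the gene, with the match in capitals. The Slc25a20 window is chr9:108661886-108662185, plus strand, with CCGGAAG, the core bound by ETS factors such as GABP. The Slc25a4 window is chr8:46211013-46211312, minus strand, also with CCGGAAG. The Slc25a10 window is chr11:120491587-120491886, plus strand, with a match to the core bound by NRF1, a GC-rich palindrome with a gap of 2 bases.
Slc25a20: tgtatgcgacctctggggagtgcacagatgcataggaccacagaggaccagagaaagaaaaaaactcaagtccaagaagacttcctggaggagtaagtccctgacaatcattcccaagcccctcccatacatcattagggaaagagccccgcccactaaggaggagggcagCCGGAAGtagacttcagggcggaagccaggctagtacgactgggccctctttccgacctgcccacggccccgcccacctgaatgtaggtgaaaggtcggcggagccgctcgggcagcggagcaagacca
Slc25a4: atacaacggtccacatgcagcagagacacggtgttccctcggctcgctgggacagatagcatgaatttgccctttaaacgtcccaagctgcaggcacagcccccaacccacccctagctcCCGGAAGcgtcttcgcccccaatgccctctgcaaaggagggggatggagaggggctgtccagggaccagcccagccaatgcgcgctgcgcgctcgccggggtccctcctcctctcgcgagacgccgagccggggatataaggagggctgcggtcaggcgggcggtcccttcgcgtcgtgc
Slc25a10: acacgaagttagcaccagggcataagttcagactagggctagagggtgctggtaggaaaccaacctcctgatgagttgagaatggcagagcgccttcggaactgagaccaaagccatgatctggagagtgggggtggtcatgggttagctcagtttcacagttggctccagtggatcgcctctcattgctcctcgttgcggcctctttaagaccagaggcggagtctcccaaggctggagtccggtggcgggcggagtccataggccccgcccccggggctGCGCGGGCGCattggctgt

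Windows were at hand for 36 of the 47 members, 46 windows in all. The members not matched included Slc25a2, Slc25a26, Slc25a27, Slc25a32, Slc25a35, Slc25a37, Slc25a41, Slc25a44, Slc25a46 and Slc25a51. Both strands were searched for CCGGAAG, for TCAAGGTCA (the site of estrogen-related receptors) and for the NRF1 and YY1 cores, and no matches in a member's window overlapped. CCGGAAG was in 7 of 36 members (19.4%) and in 9.93% of the 27025 genes with a window. Among members higher in brown fat it was in 5 of 20, namely Slc25a3, Slc25a4, Slc25a17, Slc25a20 and Slc25a38, and among members lower in brown fat in 1 of 7, Slc25a25. The NRF1 core was in 3 members, Slc25a3, Slc25a10 and Slc25a31 (8.33%), and in 7% of all genes. It was in 1 of 20 members higher in brown fat, Slc25a3, and in 1 of 7 lower in brown fat, Slc25a10. Slc25a31 was not tested. TCAAGGTCA was in no member and in 0.466% of all genes, and the YY1 core was in no member and in 0.755% of all genes. A match is a stretch of letters in the window and not a measured binding site.

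The acylcarnitine carrier and its relatives had 5 tested members. Of these, 3 were higher in brown fat, where 31.3% of all genes were, and 1 was lower, where 38.1% were. The remaining 1 was not called, and the median log2 difference was 1.04. Slc25a20 exchanges acylcarnitines for carnitine across the inner membrane, the step that brings long-chain fatty acids to beta-oxidation, and lies at chromosome 9, 108662088 to 108684641 on the plus strand of GRCm38. Slc25a20 stood at 497, 497 and 664 CPM in scBAT and 579.8, 618 and 560.4 CPM in iBAT, against 57.0, 125 and 55.3 CPM in iWAT and 65.8, 84.9 and 71.0 CPM in eWAT. Every brown library was above every white one, with iWAT library 2 the highest of the white ones (log2 difference 2.90, SE 0.21, adjusted p = 9.2e-07). Slc25a48, which human and mouse work links to choline import, showed the largest difference of the family. Slc25a48 had 24.5, 26.7 and 28.2 CPM in scBAT and 27.7, 27.3 and 30.1 CPM in iBAT, against 0.809, 1.72 and 0.691 CPM in iWAT and 0.710, 1.63 and 1.35 CPM in eWAT. The white libraries all lay at or below 1.72 CPM, with no overlap (log2 difference 4.58, SE 0.25, adjusted p = 1.5e-07). Slc25a47, a carrier found mostly in liver, spanned 5.77 to 8.31 CPM in brown libraries (median 7.57), against 2.37 to 4.83 CPM in white ones (median 3.68), also without overlap (log2 difference 1.04, SE 0.17, adjusted p = 0.000271).

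Slc25a45 went the other way. Slc25a45 was at 4.97, 5.99 and 5.96 CPM in scBAT and 5.13, 5.61 and 6.20 CPM in iBAT, against 25.1, 14.5 and 35.9 CPM in iWAT and 16.1, 15.4 and 16.9 CPM in eWAT. All brown libraries were below all white ones, and iWAT libraries 1 and 3, the ones with high lymphocyte markers, were the highest (log2 difference -1.84, SE 0.19, adjusted p = 1.1e-05). Without those 2 libraries the difference was -1.43 (adjusted p = 2.85e-07). Slc25a29, a carrier of basic amino acids, overlapped between the kinds of fat, at 6.27 to 9.63 CPM in brown libraries (median 8.30), against 5.41 to 10.7 CPM in white ones (median 9.77) (log2 difference -0.16, SE 0.17, adjusted p = 0.432).

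Of the 9 cofactor carriers 8 were higher in brown fat, where 31.3% of all genes were. None was lower, where 38.1% of all genes were, and 1 was not called. The median log2 difference was 1.54. Slc25a42 imports coenzyme A and lies at chromosome 8, 70184340 to 70212305 on the minus strand of GRCm38. Slc25a42 measured 271, 241 and 383 CPM in scBAT and 412, 412 and 343 CPM in iBAT, against 28.3, 49.9 and 25.7 CPM in iWAT and 54.0, 61.1 and 46.4 CPM in eWAT. Brown and white libraries did not overlap (log2 difference 2.98, SE 0.19, adjusted p = 3.91e-07). Slc25a51 carries NAD+ and lies at chromosome 4, 45395923 to 45408766 on the minus strand of GRCm38. Slc25a51 stood at 732, 852 and 950.4 CPM in scBAT and 859, 911 and 998 CPM in iBAT, against 153, 259.9 and 141 CPM in iWAT and 176, 204 and 189.5 CPM in eWAT. It too was separated in every library (log2 difference 2.24, SE 0.16, adjusted p = 7.68e-07).

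Slc25a39 is needed for mitochondrial glutathione import. Slc25a39 had 396, 406 and 452 CPM in scBAT and 437, 422 and 444 CPM in iBAT, against 103, 173 and 82.4 CPM in iWAT and 166, 166 and 148 CPM in eWAT. Brown fat was above white fat in all libraries (log2 difference 1.62, SE 0.16, adjusted p = 7.21e-06), while its relative Slc25a40 stood at 11.4 to 16.4 CPM in brown libraries (median 14.5), against 12.7 to 15.9 CPM in white ones (median 13.9), overlapping (log2 difference 0.00295, SE 0.10, adjusted p = 0.982). Slc25a32 is the folate and flavin carrier. Slc25a32 was at 58.2, 65.8 and 56.0 CPM in scBAT and 58.0, 58.7 and 65.6 CPM in iBAT, against 23.4, 25.2 and 23.1 CPM in iWAT and 17.6, 18.4 and 18.4 CPM in eWAT. The 3 iWAT libraries were above the 3 eWAT libraries, and all brown libraries were above both (log2 difference 1.54, SE 0.068, adjusted p = 4.31e-08). Slc25a17, a carrier of coenzyme A, FAD and NAD+ in the peroxisome rather than the mitochondrion, was separated as well. Slc25a17 measured 109, 101 and 121 CPM in scBAT and 116, 111 and 99.8 CPM in iBAT, against 48.2, 63.0 and 45.6 CPM in iWAT and 71.9, 81.2 and 71.0 CPM in eWAT. The white range was topped by eWAT library 2, below the lowest brown library (log2 difference 0.81, SE 0.093, adjusted p = 2.21e-05). Slc25a26, the S-adenosylmethionine carrier, spanned 48.1 to 57.7 CPM in brown libraries (median 54.2), against 11.8 to 25.9 CPM in white ones (median 24.8) (log2 difference 1.34, SE 0.16, adjusted p = 2.92e-05), and Slc25a16, a relative of Slc25a42, spanned 136 to 157 CPM in brown libraries (median 143), against 42.1 to 87.6 CPM in white ones (median 76.4) (log2 difference 1.05, SE 0.15, adjusted p = 0.000121), both without overlap.

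**Figure D2:**
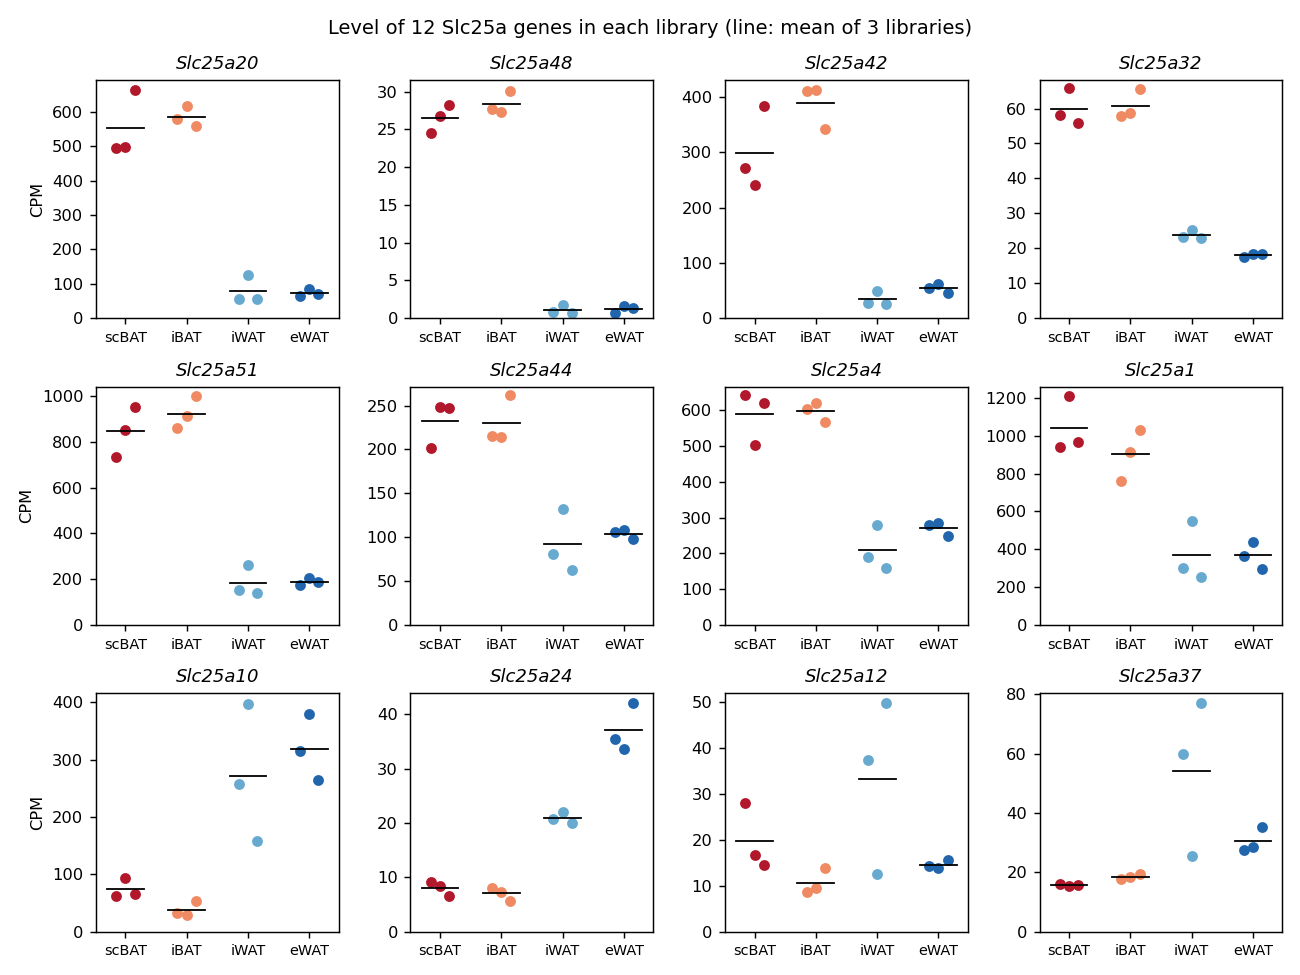
CPM of 12 Slc25a genes in each of the 12 libraries, by depot, with a line at the mean of 3 libraries and every vertical axis starting at 0. In Slc25a48, Slc25a20 and Slc25a42 the brown libraries stand clear of the white ones, in Slc25a10 and Slc25a24 they lie below them, and iWAT library 2 differs from iWAT libraries 1 and 3 in several panels.

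Among the nucleotide and phosphate carriers 8 of 10 were tested. In brown fat 6 were higher, where 31.3% of all genes were, and 2 were lower, where 38.1% were. Their median log2 difference was 0.70. The adenine nucleotide translocases exchange ADP for ATP, and in brown fat they are also known to carry protons in the presence of fatty acids. Slc25a4, the form typical of heart and muscle (chromosome 8, 46206797 to 46211284 on the minus strand of GRCm38), was higher. Slc25a4 stood at 642, 504 and 619.7 CPM in scBAT and 603, 620.5 and 568 CPM in iBAT, against 189.9, 279 and 159 CPM in iWAT and 281, 286 and 249.9 CPM in eWAT. No library overlapped (log2 difference 1.31, SE 0.14, adjusted p = 1.14e-05). Without scBAT library 1, the one with the most muscle marker reads, the difference was 1.29 (adjusted p = 6.87e-05). The other brown libraries still summed to 583.5 to 2567 CPM of muscle markers, against at most 313.4 CPM in white ones. Leaving 1 library out thus cannot separate muscle from brown fat, and the part of muscle was not tested. Slc25a5, the more widely expressed form, differed less. Slc25a5 had 605, 621 and 682 CPM in scBAT and 612, 656 and 619 CPM in iBAT, against 296, 376 and 295 CPM in iWAT and 306, 339 and 286 CPM in eWAT. Again all brown libraries were above all white ones (log2 difference 1.0, SE 0.10, adjusted p = 5.29e-06). Slc25a5 has an annotated pseudogene copy, and reads of near-identical copies may have been divided between rows. Slc25a3, the phosphate carrier that supplies ATP synthase, had the smallest difference of these 3. Slc25a3 was at 405, 424 and 419 CPM in scBAT and 372, 419.5 and 407 CPM in iBAT, against 272, 323 and 264 CPM in iWAT and 338, 344 and 316 CPM in eWAT. The lowest brown library, iBAT library 1, was only slightly above the highest white one (log2 difference 0.40, SE 0.080, adjusted p = 0.00108).

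The pyrimidine nucleotide carrier Slc25a33 had the largest difference of this group. Slc25a33 measured 73.2, 98.2 and 102 CPM in scBAT and 95.3, 108 and 111 CPM in iBAT, against 15.3, 26.9 and 14.1 CPM in iWAT and 24.5, 25.1 and 20.9 CPM in eWAT. Its brown and white libraries did not overlap (log2 difference 2.22, SE 0.17, adjusted p = 9.64e-07), whereas Slc25a36, the other pyrimidine nucleotide carrier, differed little, at 56.9 to 65.8 CPM in brown libraries (median 63.1), against 42.8 to 52.9 CPM in white ones (median 49.2) (log2 difference 0.37, SE 0.063, adjusted p = 0.000382). In GRCm38, 14.9% of the exon bases of Slc25a33 overlap an antisense gene, Gm13068, so its reads are uncertain.

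The calcium-regulated ATP-Mg/phosphate carriers move adenine nucleotides in and out of the matrix and split by direction. Slc25a23 was higher in brown fat. Slc25a23 stood at 386, 363 and 429 CPM in scBAT and 385, 366 and 369 CPM in iBAT, against 107, 202 and 71.6 CPM in iWAT and 173, 164 and 154 CPM in eWAT. White libraries reached at most 202 CPM, in iWAT library 2 (log2 difference 1.41, SE 0.21, adjusted p = 0.000133). Slc25a24 (chromosome 3, 109123149 to 109168457 on the plus strand of GRCm38) was lower in brown fat and, within white fat, lower in iWAT than in eWAT. Slc25a24 had 9.07, 8.40 and 6.53 CPM in scBAT and 8.13, 7.33 and 5.75 CPM in iBAT, against 20.7, 22.1 and 20.0 CPM in iWAT and 35.5, 33.7 and 42.0 CPM in eWAT. The depots formed 3 steps, with all brown libraries lowest, iWAT between and eWAT highest (log2 difference -1.89, SE 0.12, adjusted p = 3.04e-07). Slc25a25 was lower as well. Slc25a25 was at 12.3, 13.7 and 17.4 CPM in scBAT and 8.19, 14.0 and 12.7 CPM in iBAT, against 32.5, 35.6 and 32.4 CPM in iWAT and 42.6, 53.1 and 36.7 CPM in eWAT. All brown libraries were below all white ones (log2 difference -1.57, SE 0.15, adjusted p = 6.3e-06).

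Of the carboxylate and amino acid carriers 11 of 12 were tested. In brown fat 7 were higher, where 31.3% of all genes were, and 2 were lower, where 38.1% were. A further 2 were not called, and the median log2 difference was 1.003. Slc25a1 exports citrate, the source of cytosolic acetyl-CoA, and lies at chromosome 16, 17925223 to 17928219 on the minus strand of GRCm38. Slc25a1 measured 943, 1212 and 967 CPM in scBAT and 758, 914 and 1031 CPM in iBAT, against 301, 552 and 254 CPM in iWAT and 366, 439 and 297 CPM in eWAT. The iWAT library 2 value was the highest in white fat and still below every brown library (log2 difference 1.40, SE 0.20, adjusted p = 0.000116). Slc25a11 exchanges oxoglutarate for malate in the malate-aspartate shuttle. Slc25a11 stood at 259.7, 226 and 291 CPM in scBAT and 273, 290.1 and 261 CPM in iBAT, against 92.7, 106 and 93.4 CPM in iWAT and 92.4, 92.8 and 85.5 CPM in eWAT. Its brown and white libraries did not overlap (log2 difference 1.51, SE 0.080, adjusted p = 1.11e-07).

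Slc25a10, the dicarboxylate carrier that exchanges malate and succinate for phosphate, had the lowest difference of the family (chromosome 11, 120491840 to 120499187 on the plus strand of GRCm38). Slc25a10 had 62.5, 94.6 and 66.5 CPM in scBAT and 32.7, 30.1 and 53.2 CPM in iBAT, against 258, 397 and 158 CPM in iWAT and 314, 378 and 264 CPM in eWAT. All brown libraries were below all white ones (log2 difference -2.45, SE 0.24, adjusted p = 7.82e-06), and within white fat iWAT library 3 was the lowest. Slc25a10 was therefore lower in brown fat, while Slc25a1 and Slc25a11 were higher.

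Slc25a12 and Slc25a13 are the aspartate-glutamate carriers of the malate-aspartate shuttle, the first typical of muscle and brain and the second of liver. Slc25a12 was not called. Slc25a12 was at 27.9, 16.6 and 14.5 CPM in scBAT and 8.62, 9.62 and 13.9 CPM in iBAT, against 37.4, 12.6 and 49.8 CPM in iWAT and 14.2, 13.9 and 15.6 CPM in eWAT. Its highest values were in iWAT libraries 1 and 3, and among the brown libraries it was highest in scBAT library 1, where the muscle markers also summed highest at 7349 CPM (log2 difference -0.60, SE 0.30, adjusted p = 0.0959). Without iWAT libraries 1 and 3 the difference was 0.11. Without iWAT library 2 alone it was -0.78 (adjusted p = 0.00214), so whether Slc25a12 was called depended on the iWAT libraries used. Of the 4 pairs of a brown and a white depot, Slc25a12 was called only in iBAT minus iWAT, as lower (log2 difference -1.64, adjusted p = 0.00726). Slc25a13 was lower in brown fat, at low levels. Slc25a13 measured 0.621, 0.840 and 0.444 CPM in scBAT and 0.489, 0.510 and 0.646 CPM in iBAT, against 3.59, 1.23 and 4.18 CPM in iWAT and 1.85, 2.18 and 1.69 CPM in eWAT. Brown libraries were below white ones without overlap, and iWAT libraries 1 and 3 were again the highest (log2 difference -2.01, SE 0.31, adjusted p = 0.000203). Leaving those 2 out gave -1.35 (adjusted p = 0.000888).

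Slc25a44, which carries branched-chain amino acids and has been described in brown fat as feeding their oxidation, lies at chromosome 3, 88410498 to 88425139 on the minus strand of GRCm38. Slc25a44 stood at 201, 248 and 248 CPM in scBAT and 215, 214 and 262 CPM in iBAT, against 80.8, 132 and 63.2 CPM in iWAT and 106, 108 and 98.0 CPM in eWAT. It was separated in every library (log2 difference 1.24, SE 0.16, adjusted p = 5.47e-05). Slc25a15, the ornithine carrier of the urea cycle, was higher at modest levels. Slc25a15 had 40.7, 47.0 and 42.6 CPM in scBAT and 41.6, 43.0 and 40.4 CPM in iBAT, against 16.6, 21.4 and 16.4 CPM in iWAT and 23.2, 23.7 and 27.6 CPM in eWAT. The brown libraries lay close together, and the iWAT libraries were below the eWAT ones (log2 difference 1.003, SE 0.089, adjusted p = 3.11e-06). The glutamate carriers Slc25a22 and Slc25a18 were both higher, Slc25a18 at only 5 to 16 counts per library. Slc25a22 spanned 171 to 219 CPM in brown libraries (median 204), against 66.1 to 122 CPM in white ones (median 91.5) (log2 difference 1.14, SE 0.15, adjusted p = 5.48e-05). Slc25a18, at 0.452 to 0.978 CPM in brown libraries (median 0.560), against 0.177 to 0.527 CPM in white ones (median 0.235), overlapped (log2 difference 1.13, SE 0.28, adjusted p = 0.0043). Slc25a18 was not called against iWAT (adjusted p = 0.34 for scBAT and 0.0569 for iBAT). Slc25a38, which imports glycine for heme synthesis, spanned 28.0 to 38.9 CPM in brown libraries (median 32.2), against 21.5 to 28.9 CPM in white ones (median 23.2), also with overlap (log2 difference 0.48, SE 0.086, adjusted p = 0.000495). Slc25a21, the oxoadipate carrier, had few counts, at most 79 in a library, and was not called between brown and white fat (log2 difference 0.11, SE 1.61, adjusted p = 0.957). That difference averages brown depots that went opposite ways. Against iWAT it was 2.97 for scBAT (adjusted p = 0.0293) and -2.02 for iBAT (adjusted p = 0.27). Neither was called against eWAT (adjusted p = 0.0798 for scBAT and 0.135 for iBAT).

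The mitoferrins import iron. Slc25a37, mitoferrin 1, is best known from red cell precursors (chromosome 14, 69241848 to 69285112 on the minus strand of GRCm38). Slc25a37 was at 16.1, 15.4 and 15.9 CPM in scBAT and 17.8, 18.5 and 19.4 CPM in iBAT, against 60.0, 25.5 and 77.2 CPM in iWAT and 27.7, 28.4 and 35.4 CPM in eWAT. Every brown library was below every white one, with iWAT libraries 1 and 3 the highest (log2 difference -1.25, SE 0.22, adjusted p = 0.000441). Without those 2 libraries the difference was -0.69 (adjusted p = 2.37e-05). The 4 erythroid markers in the table summed to 27.99 to 45.49 CPM in brown fat, against 6.913 to 35.07 CPM in white fat, with 1 or 2 of them at 0 in each library. Only 1 of the 4, Alas2, was tested, and their median was 0.032 to 0.39 CPM per library. The sum is therefore close to the level of Alas2 alone and is a weak measure of red cells. Slc25a28, mitoferrin 2, overlapped between the kinds of fat, at 34.9 to 44.7 CPM in brown libraries (median 37.0), against 32.4 to 39.6 CPM in white ones (median 34.8) (log2 difference 0.13, SE 0.073, adjusted p = 0.128).

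The uncoupling protein relatives and carriers of less certain solute were mixed, with a median log2 difference of -0.11. Of 7 tested members 3 were higher in brown fat, where 31.3% of all genes were, and 2 were lower, where 38.1% were. Slc25a35 was separated in all libraries. Slc25a35 measured 221, 204 and 216 CPM in scBAT and 229, 221 and 196 CPM in iBAT, against 39.3, 72.5 and 32.1 CPM in iWAT and 45.9, 48.7 and 41.8 CPM in eWAT. No white library came within reach of the lowest brown one (log2 difference 2.20, SE 0.18, adjusted p = 1.61e-06), but 31.3% of the exon bases of Slc25a35 overlap Rangrf on the other strand, and the strand setting of the counting is not given in the sources used here. Slc25a34, its closest relative, was higher at low counts. Slc25a34 stood at 2.42, 2.63 and 3.36 CPM in scBAT and 2.51, 1.91 and 1.16 CPM in iBAT, against 0.211, 0.660 and 0.263 CPM in iWAT and 0.426, 0.555 and 1.29 CPM in eWAT. The lowest brown library, iBAT library 3, was below the highest white one, eWAT library 3 (log2 difference 2.09, SE 0.37, adjusted p = 0.000466). Slc25a46, an outer membrane protein of mitochondrial dynamics, spanned 158 to 194 CPM in brown libraries (median 178), against 70.9 to 97.2 CPM in white ones (median 79.2), without overlap (log2 difference 1.13, SE 0.10, adjusted p = 2.12e-06).

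Slc25a30 was modestly lower in brown fat. Slc25a30 had 10.6, 11.1 and 12.2 CPM in scBAT and 10.8, 11.2 and 11.3 CPM in iBAT, against 17.4, 25.4 and 21.5 CPM in iWAT and 11.5, 16.5 and 19.6 CPM in eWAT. eWAT library 1 fell within the brown range (log2 difference -0.72, SE 0.14, adjusted p = 0.000858). Slc25a53 (chromosome X, 136981116 to 137038302 on the minus strand of GRCm38) was called lower mainly against iWAT. Slc25a53 was at 2.55, 3.75 and 2.41 CPM in scBAT and 3.30, 2.87 and 2.71 CPM in iBAT, against 11.4, 4.14 and 18.3 CPM in iWAT and 3.09, 3.49 and 3.48 CPM in eWAT. The iWAT libraries 1 and 3 stood above all others, and the eWAT libraries overlapped the brown ones (log2 difference -1.07, SE 0.30, adjusted p = 0.00904). Without iWAT libraries 1 and 3, which were also high in B cell and T cell markers, the difference was -0.33 (adjusted p = 0.133), and Slc25a53 was not called against eWAT (adjusted p = 0.716 for scBAT and 0.75 for iBAT). Slc25a14 and Slc25a27, the brain-type uncoupling protein relatives, were not called: Slc25a14 spanned 2.98 to 4.43 CPM in brown libraries (median 3.27), against 3.61 to 6.55 CPM in white ones (median 4.52) (log2 difference -0.43, SE 0.18, adjusted p = 0.0546), and Slc25a27 spanned 1.85 to 5.38 CPM in brown libraries (median 3.56), against 2.42 to 4.38 CPM in white ones (median 3.81) (log2 difference -0.11, SE 0.26, adjusted p = 0.728).

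The 5 members under the filter had few counts. Slc25a2, the other ornithine carrier, had 2 to 10 counts per library, with brown and white libraries overlapping. Slc25a31, the testis form of the adenine nucleotide translocase, had 3, 2 and 2 counts in scBAT and 14, 12 and 4 counts in iBAT, against 2, 2 and 5 counts in iWAT and 4, 9 and 6 counts in eWAT. Slc25a41 had 0 or 1 count in each library. Slc25a43 had 1, 1 and 0 counts in scBAT and 2, 2 and 3 counts in iBAT, against 19, 2 and 21 counts in iWAT and 10, 5 and 11 counts in eWAT. Slc25a54 had 0 counts in all brown libraries and 2 counts in all in white ones.

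Levels of different genes were compared per kilobase of exon. In brown fat the order was led by Slc25a1 at 449 CPM per kilobase, Slc25a5 at 384 and Slc25a4 at 252. In white fat it was led by Slc25a5 at 192, Slc25a1 at 170 and Slc25a4 at 102 CPM per kilobase, followed by Slc25a10 at 85.4. Slc25a10 was 19th in brown fat, at 16.4 CPM per kilobase. The NAD+ carrier Slc25a51 was 5th at 160 CPM per kilobase in brown fat, against 8th at 34.0 in white fat. Slc25a20 was 8th at 118 CPM per kilobase in brown fat, against 13th at 15.8 in white fat. Slc25a48, with the largest fold of the family, had only 8.12 CPM per kilobase in brown fat, rank 24, against 0.341 in white fat, rank 39. In scBAT the neighbours Slc25a51 (153 ± 19.8 CPM per kilobase) and Slc25a39 (152 ± 11.0) lay within each other's spread (SD, n = 3 each), and so did Slc25a11 (122 ± 15.4) and Slc25a20 (114 ± 19.9). In iBAT Slc25a5 (382 ± 14.3 CPM per kilobase) lay within the spread of Slc25a1, the first of the order (416 ± 63.3), but not the reverse. With the length of the longest transcript in place of all exons Slc25a51 became 7th and Slc25a39 5th.

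**Figure D3:**
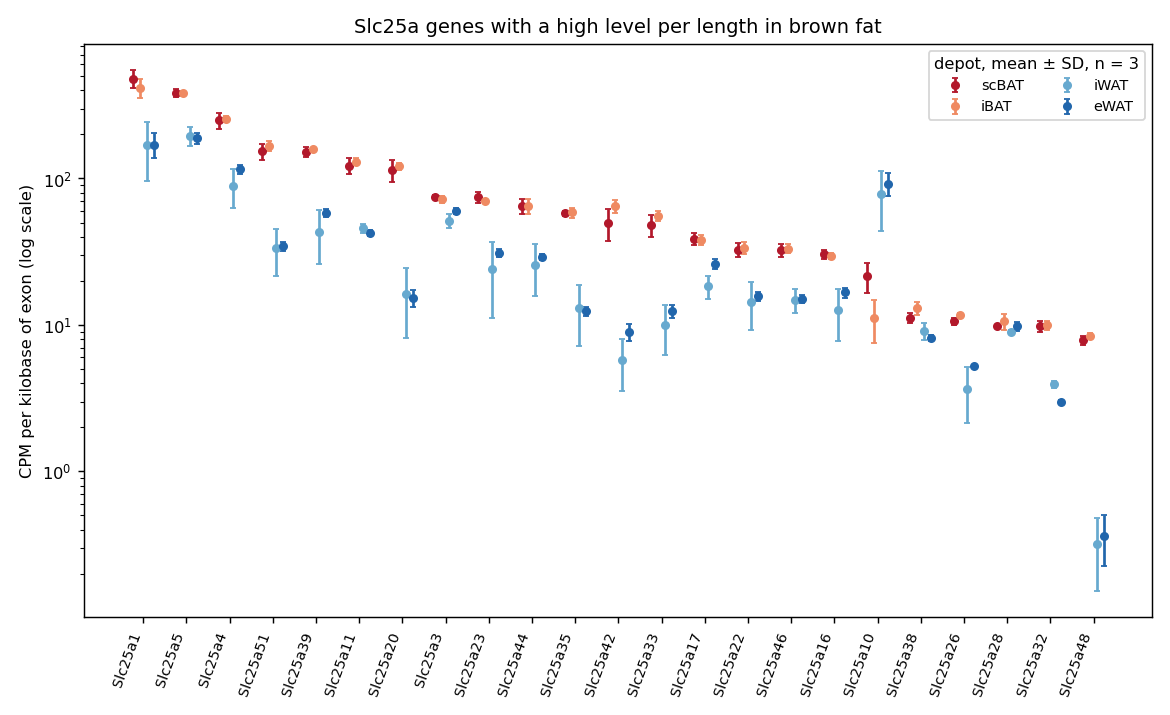
CPM per kilobase of exon (log scale) of Slc25a genes with a high level per length in brown fat, as mean ± SD of 3 libraries for each depot. Slc25a1 (449 CPM per kilobase), Slc25a5 (384) and Slc25a4 (252) lead in brown fat, and Slc25a10 is the gene whose white points lie far above its brown ones.

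Within 14 pairs of related carriers, the log2 ratio of CPM per kilobase was taken in each library, as a description. Brown and white libraries did not overlap for 8 pairs. For single genes this held for 23.3% of all genes with brown above and 21.9% with brown below. No share over other gene pairs was taken. The Slc25a23 to Slc25a24 ratio was 4.78 to 5.41 in brown libraries, against 1.22 to 2.57 in white libraries. For Slc25a47 over Slc25a48 the sign turned, with -2.11 to -1.53 in brown libraries and 1.29 to 2.94 in white libraries, so that Slc25a48 was the higher of the pair in every brown library and Slc25a47 in every white one. The Slc25a42 to Slc25a16 ratio also turned, at 0.41 to 1.26 in brown libraries, against -1.24 to -0.83 in white libraries. Slc25a33 over Slc25a36 was 2.53 to 3.19 in brown libraries, against 0.44 to 1.54 in white libraries. Slc25a39 exceeded Slc25a40 in every library, by 6.32 to 6.76 in brown and 4.01 to 5.38 in white libraries. The aspartate-glutamate carriers, Slc25a12 over Slc25a13, stood at 3.19 to 4.54 in brown libraries and 1.72 to 2.62 in white libraries. The adenine nucleotide translocases overlapped: Slc25a4 over Slc25a5 was -0.82 to -0.43 in brown libraries and -1.41 to -0.64 in white libraries.

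**Figure D4:**
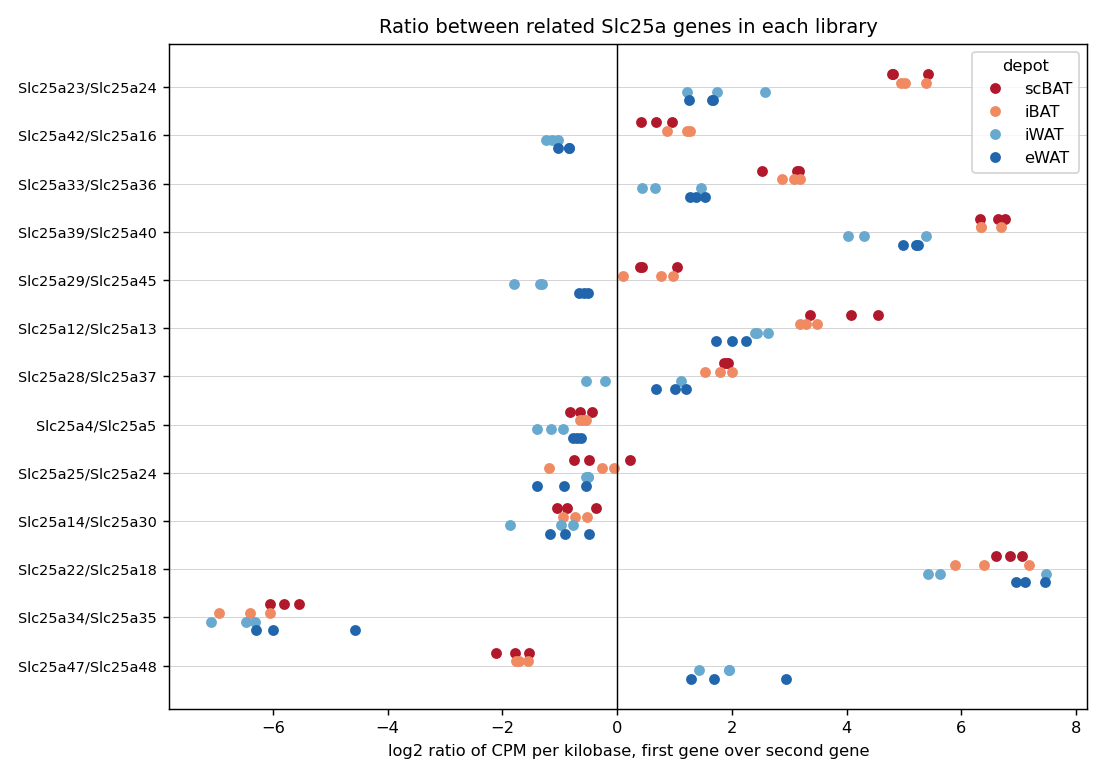
Log2 ratio of CPM per kilobase between the genes of each of 13 related pairs whose genes were both tested, 1 point per library, coloured by depot. The brown points of Slc25a47 over Slc25a48 lie at -2.11 to -1.53, left of 0, and the white ones at 1.29 to 2.94, right of 0, while those of Slc25a4 over Slc25a5 overlap.

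Between the brown depots no member was called in scBAT minus iBAT by edgeR, where 0.329% of all genes were. At an unadjusted p under 0.05 there were 2 members, where 5.74% of all genes were. Slc25a10 averaged 74.5 ± 17.4 CPM in scBAT, against 38.7 ± 12.7 CPM in iBAT (SD, n = 3 each; log2 difference 0.95, SE 0.33, adjusted p = 0.553). Slc25a21 had 19, 79 and 14 counts in the scBAT libraries, against 1, 2 and 0 counts in the iBAT libraries (log2 difference 4.99, SE 1.35, adjusted p = 0.307). The 7 salivary gland markers summed to 7045, 11920 and 2545 CPM in those scBAT libraries, against 537.3, 869.5 and 1102 CPM in the iBAT libraries, and 1 to 3 of them were at 0 in each library. In white fat Slc25a21 had the most counts, 28, in eWAT library 2, where these markers summed to 2547 CPM. Their part in the Slc25a21 values was not tested. DESeq2 called Slc25a21 higher in scBAT (log2 difference 5.10, adjusted p = 0.0218) and no other member. An edgeR fit to the 2 brown depots alone called none of the 42 tested members, where 1.14% of all genes were called.

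Between the white depots 5 members were called in iWAT minus eWAT by edgeR, where 28.7% of all genes were. Slc25a32 (log2 difference 0.40, SE 0.10, adjusted p = 0.016) and Slc25a53 (log2 difference 1.75, SE 0.42, adjusted p = 0.0173) were higher in iWAT, where 17.7% of all genes were higher. Slc25a24 (log2 difference -0.82, SE 0.16, adjusted p = 0.00785), Slc25a17 (log2 difference -0.51, SE 0.13, adjusted p = 0.0202) and Slc25a15 (log2 difference -0.45, SE 0.12, adjusted p = 0.0259) were lower, where 11% of all genes were lower. The libraries of the 2 depots did not overlap for 8 members, against 34.9% of all genes. The number called changed with the libraries left out, as did the share over all genes. Without iWAT library 2 it was 8 higher, 1 of them a member outside the 42, and 19 lower, where 67.2% of all genes were called. Without iWAT library 1 it was 1 higher and 1 lower, where 8.95% of all genes were called, and without iWAT library 3 the same numbers, where 12.7% were. Without iWAT library 1, Slc25a15 (log2 difference -0.39, adjusted p = 0.103), Slc25a17 (-0.46, adjusted p = 0.0823) and Slc25a53 (1.75, adjusted p = 0.0542) were not called, though their differences stayed close to those of all libraries. Nor were they without iWAT library 3, at -0.38 (adjusted p = 0.0822), -0.42 (adjusted p = 0.0631) and 1.21 (adjusted p = 0.0566) in the same order. Slc25a24 was not called without both of them (log2 difference -0.72, adjusted p = 0.0778). Without eWAT library 1, 2 or 3 in turn 0 members were higher and 1 was lower, where 7.94%, 11.2% and 9.73% of all genes were called.

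The iWAT libraries differed from each other more than those of the other depots. The median log2 spread of a member, highest over lowest library, was 0.30 in scBAT, 0.22 in iBAT, 0.91 in iWAT and 0.20 in eWAT. Of the 42 tested members, iWAT library 2 was the highest of the 3 iWAT libraries for 30, the lowest for 10 and between the others for 2. The adipocyte markers shared by brown and white fat summed to 5432, 9082 and 3537 CPM in iWAT libraries 1, 2 and 3, and the brown adipocyte markers to 128.3, 400.1 and 151.0 CPM, while the lymphocyte markers were lowest in library 2. The members lowest in iWAT library 2 included Slc25a12, Slc25a13, Slc25a37, Slc25a45 and Slc25a53. The part of lymphocytes in these values was not tested, other than by leaving out iWAT libraries 1 and 3. Without both, 34 of the 35 members called between brown and white fat were still called, and Slc25a53 was not.

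**Figure D5:**
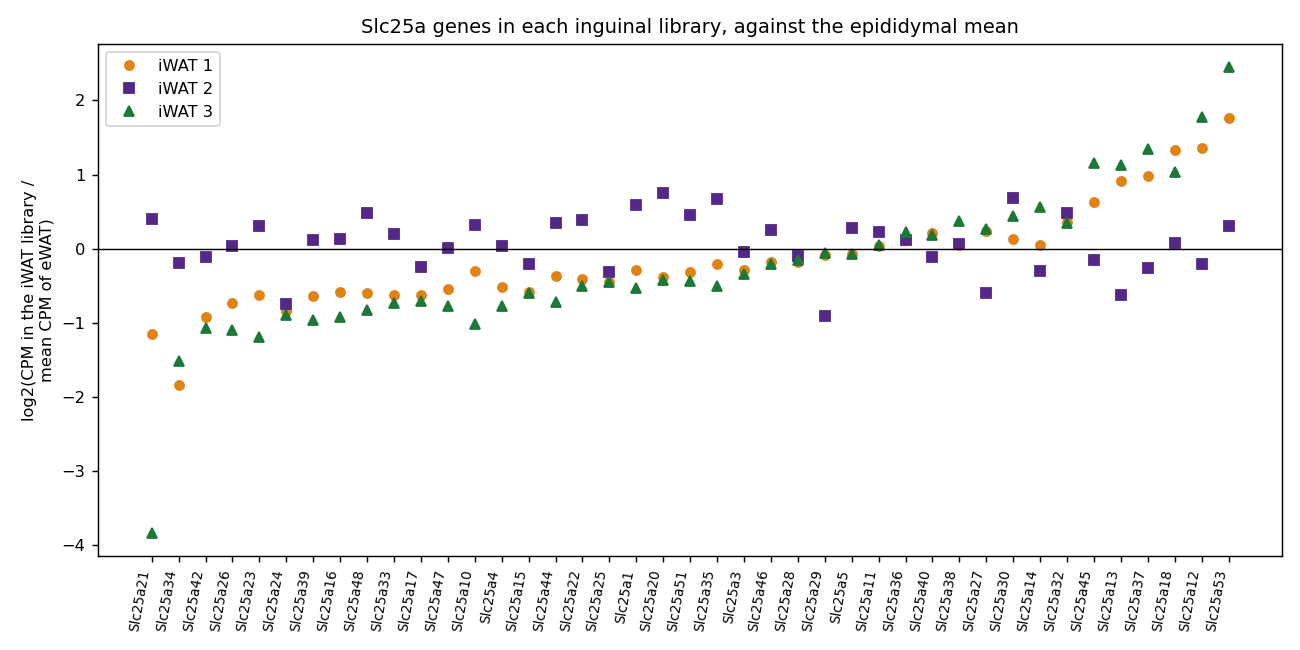
Log2 ratio of each iWAT library's CPM to the mean CPM of eWAT for tested Slc25a genes, with a symbol for each iWAT library. iWAT library 2 is the highest of the 3 for most genes and the lowest for 10.

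Of 22 other mitochondrial transporters tested, outside the Slc25a symbols, 17 were higher in brown fat, where 31.3% of all genes were, 3 were lower, where 38.1% were, and 2 were not called. Their median log2 difference was 1.23, against -0.106 over all tested genes. Among those higher were Ucp1, the thermogenic uncoupling protein (log2 difference 6.03, adjusted p = 5.61e-07), and both subunits of the mitochondrial pyruvate carrier, Mpc1 (log2 difference 2.05, adjusted p = 2.94e-06) and Mpc2 (log2 difference 2.06, adjusted p = 2.45e-06). Those lower were Ucp2 (log2 difference -1.75, adjusted p = 7.46e-06), Sfxn2 (log2 difference -0.68, adjusted p = 7.77e-06) and Sfxn3 (log2 difference -2.02, adjusted p = 2.17e-06), the last 2 being sideroflexins, a family of inner membrane transporters. None of the 22 was called in scBAT minus iBAT, where 0.329% of all genes were, and 1 was called, as higher, in iWAT minus eWAT, where 28.7% of all genes were called.

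Enzymes that make or use what the carriers move were listed as partners. Of 34 listed, 32 were tested: 23 were higher in brown fat, where 31.3% of all genes were, 4 were lower, where 38.1% were, and 5 were not called, with a median log2 difference of 0.99. Beside Slc25a20 stand the carnitine palmitoyltransferases: Cpt1b (log2 difference 4.22, adjusted p = 4.17e-06) and Cpt2 (log2 difference 1.70, adjusted p = 7.46e-05) were higher, and Cpt1a, the liver-type enzyme of the outer membrane, was lower (log2 difference -1.61, adjusted p = 2.65e-08). Beside Slc25a42 stand Pank1, which starts coenzyme A synthesis (log2 difference 4.77, adjusted p = 1.03e-07), and Coasy, which ends it (log2 difference 1.35, adjusted p = 1.85e-05). Beside Slc25a51 stand Nampt (log2 difference 1.84, adjusted p = 8.52e-06) and Nmnat3 (log2 difference 0.83, adjusted p = 0.000366), enzymes of NAD+ synthesis. Beside Slc25a1 stand citrate synthase, Cs (log2 difference 2.38, adjusted p = 1.15e-06), and ATP citrate lyase, Acly (log2 difference 2.18, adjusted p = 1.6e-06), both higher. Beside Slc25a44, Bckdha of the branched-chain keto acid dehydrogenase was higher (log2 difference 1.90, adjusted p = 1.24e-05), and the mitochondrial branched-chain transaminase Bcat2 was not called (log2 difference -0.38, adjusted p = 0.0728). The enzymes lower in brown fat also included Oat (log2 difference -0.59, adjusted p = 0.00023) and Mthfd2 (log2 difference -1.08, adjusted p = 0.0315), which serve ornithine metabolism and mitochondrial folate metabolism. In iWAT minus eWAT 3 of the 32 partner enzymes were lower, Cpt1a, Oat and Alas2, near the 11% of all genes that were lower there, and none was higher, where 17.7% of all genes were.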

How the data were processed

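The deposited table holds raw counts, whole numbers of reads per gene symbol and library, with no normalization by the authors. Per the submitters' processing notes the tools were bcl2fastq 1.8.3, STAR 2.4.2a, Picard 1.119, HTSeq 0.6.1p1 and edgeR, with genome build mm10. Their settings, the annotation and the strand setting are not given in the sources used here, so genes that overlap on opposite strands are uncertain. Libraries were made with the TruSeq RNA kit from total RNA, per the labels' protocols.

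Low genes were removed with filterByExpr on depot. The main test was edgeR 4.0.16 (R 4.3.3), quasi-likelihood, with TMM factors and robust estimates. All 12 libraries entered 1 fit with a mean per depot, leaving 8 residual degrees of freedom. An adjusted p is two-sided, corrected by Benjamini-Hochberg across the 14898 genes that passed the filter, from edgeR where no other tool is named, and called under 0.05. The scripts were tested on simulated data. No 2 libraries held identical counts. The biological coefficient of variation was 15.7% in scBAT, 12.1% in iBAT, 42.6% in iWAT and 17.5% in eWAT, so differences involving iWAT are the least precise. The fit shares 1 estimate of spread per gene across depots, so the SEs and p-values do not show this. The wide iWAT spread enters every comparison, also scBAT minus iBAT.

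Values in each library are given for called members with the 12 largest and the 8 lowest differences between brown and white fat, for members called within a kind of fat, and for 14 members listed by role, other than a few items that are counted but not reported here by name. The members, role groups, marker lists and partner lists were chosen with earlier results of these data known. Gene positions and exon lengths come from GENCODE for GRCm38, and promoters from RefSeq for GRCm38.p6. The alternatives were other scalings (RLE, upper quartile), no filter, DESeq2 1.42.0, limma-voom, a replicate block, each library left out, iWAT libraries 1 and 3 left out together, and fits to the compared depots alone.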

Additional observations from a re-analysis of the deposited data

How the results depend on the processing

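Between brown and white fat none of the called members changed direction under any alternative, while 5 members that were not called crossed 0: Slc25a12 (-0.78 to 0.11), Slc25a21 (-0.45 to 0.90), Slc25a27 (-0.34 to 0.21), Slc25a29 (-0.26 to 0.16) and Slc25a40 (-0.064 to 0.12). Of the 35 members called, 34 stayed called in every alternative, and Slc25a53 was not called with limma-voom (log2 difference -0.98, adjusted p = 0.0643) or without iWAT libraries 1 and 3 together (-0.33, adjusted p = 0.133). Of the 7 not called, 3 were called in some alternative: Slc25a14 as lower with upper quartile scaling (adjusted p = 0.0285), DESeq2 (0.0486), without scBAT library 2 (0.0279) and without iWAT library 2 (0.0127), Slc25a28 as higher without iBAT library 3 (0.0396), and Slc25a12 as lower without iWAT library 2 (0.00214). Leaving out 1 library at a time gave 27 to 30 members higher and 8 to 11 lower, 22 to 26 higher and 4 to 7 lower in all 4 pairs of depots, 0 in either direction for scBAT minus iBAT, and 0 to 8 higher and 1 to 19 lower for iWAT minus eWAT. Other than for the 4 pairs, these counts include members outside the 42 that passed the filter in those fits; among the 42 the ranges were 27 to 28 higher and 8 to 10 lower, and 0 to 7 higher and 1 to 19 lower for iWAT minus eWAT. The highest counts for iWAT minus eWAT came without iWAT library 2. For iWAT minus eWAT, DESeq2 called 4 higher and added Slc25a42 as lower (adjusted p = 0.0476), where 38% of all genes were called. A fit to the compared depots alone called 0 higher and 0 lower. Many members crossed 0 over the alternatives for iWAT minus eWAT. Examples were Slc25a12 (-0.1886 to 1.585), Slc25a13 (-0.61 to 1.03) and Slc25a23 (-0.87 to 0.32). Among them, Slc25a20 and Slc25a35 changed sign with the iWAT libraries used. Their log2 differences were -0.39 and -0.34 without iWAT library 2, and 0.78 and 0.69 without iWAT libraries 1 and 3 together. In that comparison none of the 5 calls held in all alternatives, and the fit to the compared depots alone called 210 of all genes in place of 4277. For scBAT minus iBAT, DESeq2 called 1 member higher, and it called 210 of all genes, against 49 with edgeR. Upper quartile scaling moved the median of all genes between brown and white fat to -0.17, against -0.11 with TMM.

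The values gave no clear sign that the replicate numbers of the labels pair the libraries. Of 18 correlations between same-numbered libraries 5 were over 0.1 and 10 were negative, from -0.184 to 0.234. In 13 of 36 comparisons a library correlated best with its own number, out of 3 numbers. This cannot settle whether same-numbered libraries came from 1 animal, as libraries of a depot also differed in markers of other tissues. With the replicate block 1 member was higher in scBAT minus iBAT, Slc25a21, and 18 of all genes were called there. A lone library left in a depot was assumed to vary like the other depots. Members at a few counts, such as Slc25a21, are limited by depth.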
